A study of Mus musculus with 4 samples.

Results

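The genes described here were the cadherins and the non-clustered protocadherins, taken as every gene whose symbol was Cdh or Pcdh followed by a number alone. They were 33 of the 19465 genes in the files, 22 with a Cdh symbol and 11 with a Pcdh symbol. Together they held 412836 of 281602118 UMIs, or 0.147%, where a UMI is a molecular barcode that marks 1 captured molecule. In total, 32 members had at least 100 UMIs over all files and are described. Cdh16 had 4 UMIs and was only counted, and Cdh17, with 106 UMIs, was the member just above that limit.

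Expression was measured with Visium, which counts UMIs per gene at fixed spots under a tissue section, on formalin-fixed and paraffin-embedded coronal sections through the palate of mouse heads. All embryos were wild-type C57BL/6J, with no transgene or treatment, and the groups differed in age only, embryonic day 14.5 (E14.5) or 15.5 (E15.5). Each stage had 2 libraries, of which replicate 1 held 1 section and the other held the 3 sections of replicates 2, 3 and 4. The 3 sections of such a library shared its capture area, so the library was the unit of every test. The study describes its spatial experiments as biological replicates, while the labels do not tie the numbered sections to embryos. The p-values measure the spread between these libraries. The 6357 tissue spots had medians of 6752 to 64051 UMIs per library, and the E14.5 replicate 1 library was the shallowest.

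Cadherins are transmembrane proteins that hold neighbouring cells together in a calcium-dependent way. The classical type I and type II cadherins bind like molecules on the next cell and are tied to actin through catenins, so that cells with different cadherins tend to sort apart. The non-clustered protocadherins carry similar extracellular repeats without the classical catenin-binding tail and are best known from the developing nervous system. In the palate and the face, E-cadherin and P-cadherin mark epithelia and cadherin 11 marks mesenchyme.

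Of the 33 members, 4 were classical type I cadherins (Cdh1, Cdh2, Cdh3 and Cdh4), 13 were type II cadherins, 2 belonged to the seven-domain group (Cdh16 and Cdh17), 1 was the membrane-anchored Cdh13, 2 were the tip-link genes Cdh23 and Pcdh15, 10 were other protocadherins, and Cdh26 fell in none of these. By identifier, all 33 had a position in the GENCODE M21 annotation of GRCm38. Chromosome 8 held 7 of them (Cdh1, Cdh3, Cdh5, Cdh8, Cdh11, Cdh13 and Cdh16). Cdh3 (chr8:106510891-106557297) and Cdh1 (chr8:106603351-106670246) lay side by side on the plus strand, 46053 bases apart.

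RefSeq (GRCm38.p6) gave promoter windows, from 250 bases before to 50 after the start, for 21 of the 33 members, in 24 windows. There was no entry for Cdh1, Cdh2, Cdh3, Cdh4, Cdh5, Cdh11, Cdh13, Cdh16, Cdh17, Cdh19, Pcdh1 and Pcdh12. The windows of the 4 members with the largest higher difference between a region and the rest of the section, among those with an entry, are printed 5′ to 3′ because they belong to 4 different tissues, the olfactory epithelium (Cdh26), the cortex (Cdh12), the retina (Cdh20) and the ventral forebrain (Cdh8). Capitals mark the GC box found by the search described after them.
Cdh26, chr2:178430265-178430564, plus strand: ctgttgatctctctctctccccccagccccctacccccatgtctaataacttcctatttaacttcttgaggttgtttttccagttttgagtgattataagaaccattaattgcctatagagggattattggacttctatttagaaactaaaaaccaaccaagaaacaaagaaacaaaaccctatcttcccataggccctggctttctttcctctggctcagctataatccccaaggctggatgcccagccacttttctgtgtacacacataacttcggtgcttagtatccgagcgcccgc
Cdh12, chr15:21111202-21111501, plus strand: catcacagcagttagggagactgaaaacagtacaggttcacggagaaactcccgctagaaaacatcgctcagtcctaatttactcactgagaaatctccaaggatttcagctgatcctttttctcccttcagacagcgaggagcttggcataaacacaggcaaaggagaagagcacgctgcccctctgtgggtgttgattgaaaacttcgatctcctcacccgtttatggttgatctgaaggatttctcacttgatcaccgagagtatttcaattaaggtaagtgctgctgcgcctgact
Cdh20, chr1:104768270-104768569, plus strand: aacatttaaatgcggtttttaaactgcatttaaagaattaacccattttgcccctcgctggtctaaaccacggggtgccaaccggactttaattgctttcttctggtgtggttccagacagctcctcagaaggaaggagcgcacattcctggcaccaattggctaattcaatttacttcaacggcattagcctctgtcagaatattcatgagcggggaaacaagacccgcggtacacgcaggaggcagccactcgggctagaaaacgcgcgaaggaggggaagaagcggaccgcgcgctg
Cdh8, chr8:99416422-99416721, minus strand: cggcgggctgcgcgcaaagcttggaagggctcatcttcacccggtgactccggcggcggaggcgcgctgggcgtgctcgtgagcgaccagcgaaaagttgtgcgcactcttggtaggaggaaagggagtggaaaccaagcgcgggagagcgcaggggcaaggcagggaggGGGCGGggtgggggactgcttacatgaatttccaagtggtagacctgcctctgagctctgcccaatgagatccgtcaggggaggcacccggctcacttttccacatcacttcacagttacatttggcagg
The GC box was searched as GGGCGG. The E2 box, which Snai and Zeb factors bind, was searched as CAGGTG. A homeodomain core was searched as TAATTA. The TATA box was searched as TATAAA. Both strands were searched, and no motif contains another. Of the 4 windows, only that of Cdh8 held a match, the GC box. The Cdh12 window lay inside the GENCODE span of its gene, chr15:20449265-21589533. Over all 24 windows of the members, 8 held the GC box (33.3%), 5 the E2 box (20.8%), 1 the homeodomain core (4.17%) and 2 the TATA box (8.33%). The 5 windows with the E2 box belonged to only Cdh7, Pcdh15 and Pcdh7. Of 32851 RefSeq promoter windows of the same length, 35.7%, 20.2%, 5.29% and 13.6% held them. Counted by window and not by gene, the members' shares were thus close to those of all promoters. A match is a description of letters and does not show a bound site.

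To compare tissues, each spot was put in the region whose marker genes took the largest share of its UMIs, relative to the mean share over all tissue spots, and the region names below stand for these markers. No member was in a marker list. A spot can hold several cells, so a region is an area rich in a cell type and not the cell type alone. Of the 6357 spots, 4547 were assigned and 1810 were not, and 14 of 17 regions had at least 10 spots in at least 3 libraries and were tested. UMIs were summed per library over the spots of a region and over all its other tissue spots, and both sums were compared with edgeR's quasi-likelihood test with the library as a block. Adjusted p-values are Benjamini-Hochberg values over all genes tested, a gene is called at an adjusted p under 0.1, and "higher" and "lower" below refer to calls. CPM is UMIs per 1000000 UMIs of the same spots, and it compares 1 gene between spots, not genes with each other. A value in brackets after a region, or beside an SE, is the log2 difference of the region over the rest, unless the stages are compared. Values per library are given in the order E14.5 replicate 1, E14.5 replicates 2, 3 and 4, E15.5 replicate 1, and E15.5 replicates 2, 3 and 4. Within a bulk sum of spots, fewer cells of a type and less RNA per cell cannot be told apart.

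Over 411 pairs of a member and a region that could be tested, 89 were higher and 136 lower. In all, 28 members were higher in at least 1 region. The share of all genes for these totals was not computed, so the totals alone cannot tell whether the members differ from other genes. In 211 of the 225 called pairs every library moved in the direction of the call, and in 153 the region's libraries did not overlap the rest. That was 93.8% and 68.0% of the members' called pairs, beside 90.5% and 53.9% of the 75306 called pairs of all genes. Regions differ in many genes, so the count in each region below is set beside the share of all genes called in the same comparison. In the 3 brain regions (spots high in cortical excitatory neuron, ventral forebrain GABAergic or radial glia markers), 7 members were higher in all 3, namely Cdh4, Cdh7, Cdh8, Cdh10, Cdh24, Pcdh8 and Pcdh10. In the other direction, 6 were lower in all 3, namely Cdh1, Cdh3, Cdh5, Cdh11, Pcdh12 and Pcdh18. Of the 27 members tested in all 3, these were 25.9% and 22.2%, beside 14.7% and 24.4% of 13217 genes, so the share of lower members was near that of all genes. These 3 comparisons share libraries, and each counts the spots of the other 2 in its rest. Of the 7 higher members, Cdh4 and Cdh10 had a library against the call in ventral forebrain spots. Cdh10 also had a library against the call in radial glia zone spots.

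**Figure D1:**
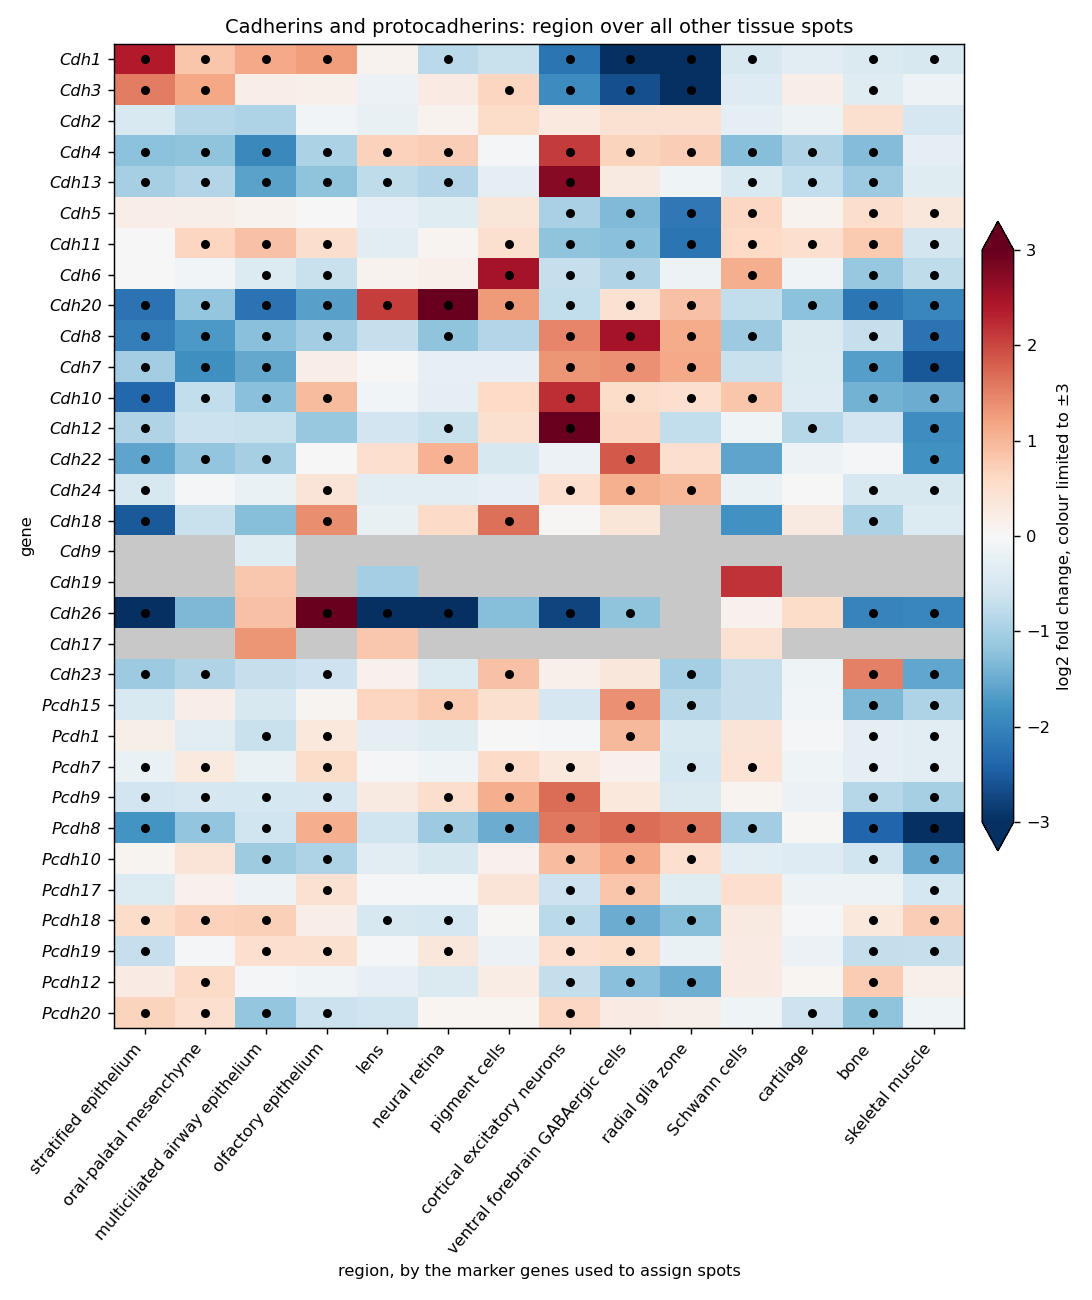
Log2 fold change of the UMIs of each described member (rows) in the spots of each region (columns) over all other tissue spots of the same libraries, from edgeR with the library as a block. Red is higher and blue lower, the colour stops at 3 in either direction, black dots mark pairs called at an adjusted p under 0.1, and grey cells were not tested. The dots in red for Cdh4, Cdh7, Cdh8, Cdh10, Cdh24, Pcdh8 and Pcdh10 run across the 3 brain regions, where Cdh1, Cdh3, Cdh5, Cdh11, Pcdh12 and Pcdh18 are blue.

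Among the type I cadherins, Cdh1 encodes E-cadherin, the main adhesion molecule of epithelial junctions. In stratified epithelium spots, high in keratin genes of the skin and mouth, Cdh1 stood at 124, 166, 183 and 188 CPM against 15.9, 35.3, 33.0 and 43.1 CPM in the rest. Each of the 4 libraries was higher and none overlapped the rest, and the difference was 2.37 on the log2 scale (SE 0.119, adjusted p = 7.9e-06, edgeR). These spots held 6.05% of all tissue UMIs and 24.3% of the Cdh1 UMIs. Cdh1 was also higher in olfactory epithelium spots (1.25, SE 0.13), in multiciliated airway epithelium spots (1.13, SE 0.128) and in oral-palatal mesenchyme spots (0.84, SE 0.158). In radial glia zone spots it was at 4.7, 2.04, 0 and 1.27 CPM against 20.1, 41.1, 49.7 and 54.1 CPM in the rest, with 18 UMIs over the 4 libraries. That was the lowest position of Cdh1 among the regions tested, at -4.25 on the log2 scale (SE 0.671, adjusted p = 0.00253, edgeR).

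Cdh3, which encodes P-cadherin of basal epithelial cells, followed Cdh1 in part. In stratified epithelium spots it stood at 233, 152, 170 and 130 CPM against 46.6, 55.1, 64.2 and 55.6 CPM in the rest. All 4 libraries were above the rest with no overlap, a difference of 1.53 on the log2 scale (SE 0.14, adjusted p = 4.8e-05, edgeR). In oral-palatal mesenchyme spots Cdh3 was at 128, 121, 186 and 106 CPM against 46.8, 56.3, 70.3 and 59.1 CPM, a difference of 1.16 (SE 0.111). Cdh3 was also higher in pigment cell spots (0.65, SE 0.132), where Cdh1 was not called. In olfactory and multiciliated airway epithelium spots, where Cdh1 was higher, Cdh3 was not called. Oral-palatal mesenchyme spots were chosen for Osr2, Pax9 and other mesenchymal genes, of which Tbx22 had no UMI there. The 8 stratified epithelium markers summed to 2139 to 3081 CPM in them against 508 to 1651 CPM in the rest, with 5 of 8 higher on average. The part of these epithelial markers in the Cdh1 and Cdh3 values was not tested.

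**Figure D2:**
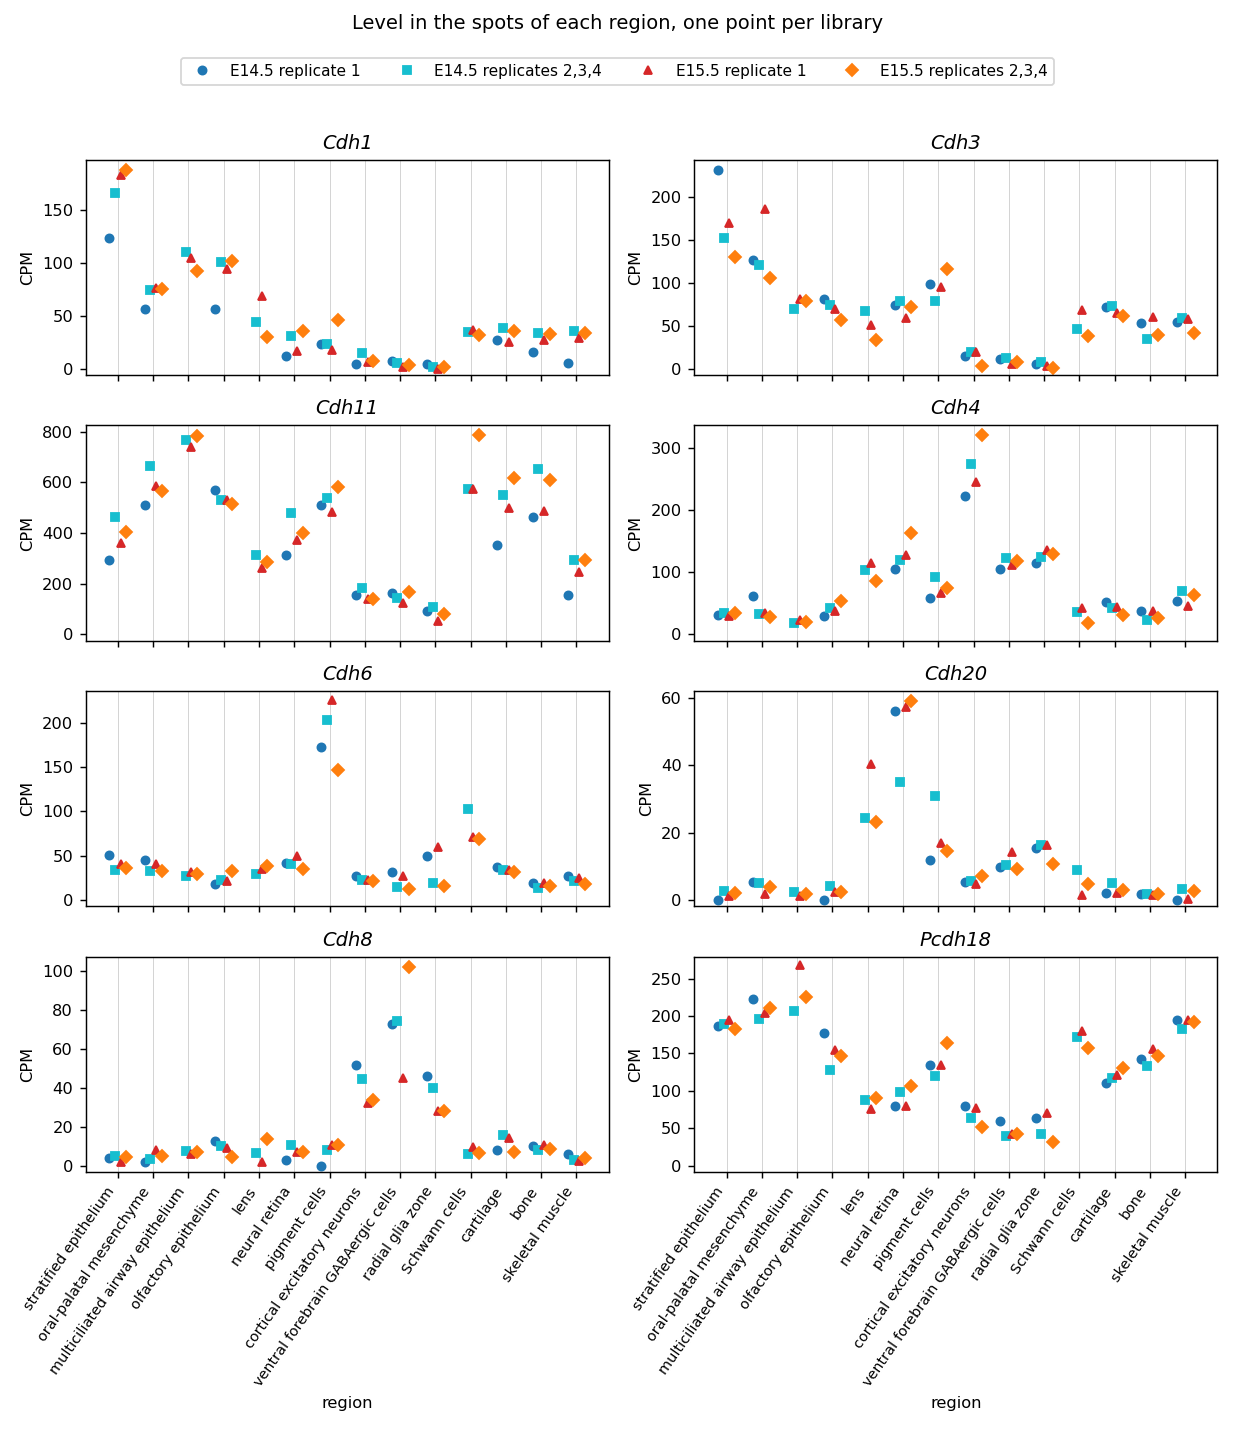
CPM (vertical axes, starting near 0) of 8 members in the spots of each region (horizontal axis), 1 point per library with at least 10 spots of the region, in blue tones for E14.5 and red tones for E15.5. Cdh1 peaks in stratified epithelium spots and Cdh3 in stratified epithelium or oral-palatal mesenchyme spots, Cdh4 in cortical spots, Cdh6 in pigment cell spots, Cdh20 in neural retina spots and Cdh8 in ventral forebrain spots, while Cdh11 and Pcdh18 are low in the 3 brain regions.

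The other type I cadherins were Cdh4 and Cdh2. Cdh4, or R-cadherin, is known from brain and retina. In cortical excitatory neuron spots it stood at 222, 275, 245 and 321 CPM against 81.3, 73.5, 61.3 and 52.7 CPM, higher in each library without overlap (log2 2.10, SE 0.165, adjusted p = 0.000165, edgeR). It was also higher in radial glia zone (0.74), neural retina (0.73), lens (0.70) and ventral forebrain (0.66) spots. In neural retina spots 3 of 4 libraries were above the rest and E14.5 replicate 1 was not (105 against 112 CPM), and the call was lost without the E15.5 replicate 1 (0.71, adjusted p = 0.211) or the E15.5 replicates 2, 3 and 4 (0.43, adjusted p = 0.131, edgeR). The ventral forebrain call of Cdh4 also had a library against it. Cdh4 was lower in 7 regions outside the brain and eye, the furthest being multiciliated airway epithelium (-1.94). Cdh2, which encodes N-cadherin of neural and muscle cells, was counted at only 371 UMIs, or 0.39 to 1.64 CPM per library. The probe set is not given in the sources used here, and the part of the probes in this low count was not tested. Cdh2 was called in none of the 14 regions. In radial glia zone spots it was at 1.28, 2.45, 0.628 and 1.9 CPM against 1.3, 1.6, 0.374 and 1.63 CPM, a difference of 0.46 (SE 0.375, adjusted p = 0.336, edgeR), with 14 UMIs. Its fitted differences ran from -0.93 in multiciliated airway epithelium (SE 0.57) to 0.56 in pigment cell spots (SE 0.365).

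Cdh13 encodes T-cadherin, which is held in the membrane by a lipid anchor. In cortical excitatory neuron spots it was at 280, 245, 279 and 286 CPM against 52.5, 46.3, 40.7 and 38.3 CPM (log2 2.74, SE 0.113, adjusted p = 5.05e-05, edgeR). All 4 libraries lay within a narrow band far above the rest. Those spots held 6.48% of all UMIs and 30.4% of the Cdh13 UMIs. The cortex was the only region of the 14 in which Cdh13 was higher, and it was lower in 9, among them multiciliated airway epithelium (-1.61) and olfactory epithelium (-1.22).

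Among the type II cadherins outside the brain, Cdh11 is the cadherin of osteoblasts and mesenchyme, and it had the most UMIs of the members (115477). In bone spots it stood at 464, 652, 489 and 611 CPM against 268, 382, 343 and 461 CPM, higher in each library without overlap (log2 0.79, SE 0.0827, adjusted p = 0.000313, edgeR). In the multiciliated airway spots of 3 libraries it was at 768, 739 and 783 CPM against 393, 343 and 474 CPM (0.87, SE 0.0852). The 7 cartilage markers were also higher in those spots, at 5570 to 7679 CPM against 2519 to 4624 CPM in the rest, and their part in the Cdh11 value was not tested. Cdh11 was higher in oral-palatal mesenchyme (0.65), Schwann cell (0.60), olfactory epithelium (0.54), cartilage (0.51) and pigment cell (0.48) spots. It was the only member called higher in cartilage spots, where 1 of 29 members tested was higher and 5 were lower, against 14.3% and 11.1% of all genes tested. In skeletal muscle spots Cdh11 was lower, at 156, 292, 247 and 294 CPM against 279, 417, 368 and 518 CPM (-0.55, SE 0.101). In radial glia zone spots it was at 91.8, 109, 52.4 and 81.1 CPM against 308, 411, 367 and 492 CPM (-2.18, SE 0.2, adjusted p = 0.000621, edgeR).

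Cdh5 encodes VE-cadherin of endothelial junctions and Pcdh12 a protocadherin that is also known from endothelium. Cdh5 was higher in Schwann cell (0.61, SE 0.129), bone (0.52, SE 0.0729) and skeletal muscle (0.33, SE 0.132) spots. In bone spots it was at 77.0, 80.6, 102 and 101 CPM against 55.6, 58.4, 83.0 and 88.0 CPM, higher in each library with some overlap between libraries. In muscle spots the fourth library went the other way, at 85.2 against 90.9 CPM, and that call was lost without the E14.5 replicates 2, 3 and 4 (0.39, adjusted p = 0.169), without the E15.5 replicate 1 (0.37, adjusted p = 0.201, edgeR) and when spots were thinned to 5000 UMIs (0.13). Pcdh12 was higher in bone (0.77, SE 0.229) and oral-palatal mesenchyme (0.57, SE 0.178) spots, and in bone spots it was at 30.8, 6.55, 13.5 and 10.0 CPM against 7.88, 5.31, 9.47 and 7.67 CPM. Its oral-palatal call was lost without the E14.5 replicates 2, 3 and 4 (0.49, adjusted p = 0.24) and without the E15.5 replicates 2, 3 and 4 (0.60, adjusted p = 0.127, edgeR). The endothelial markers summed to 356 to 457 CPM in bone spots and 371 to 645 CPM in Schwann cell spots, against 306 to 387 CPM and 310 to 390 CPM in their rest. In radial glia zone spots Cdh5 was at 20.1, 14.7, 12.9 and 17.1 CPM against 62.9, 61.3, 87.7 and 91.3 CPM (-2.14, SE 0.195, adjusted p = 0.000621, edgeR).

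Cdh6 and Cdh20, also of type II, had their largest differences in pigment cell and neural retina spots. In pigment cell spots Cdh6 stood at 173, 203, 225 and 147 CPM against 39.3, 27.9, 38.2 and 28.7 CPM, with no overlap (log2 2.49, SE 0.123, adjusted p = 9.1e-05, edgeR). These spots held 3.88% of all UMIs and 19.0% of the Cdh6 UMIs. Cdh6 was also higher in Schwann cell spots, at 103, 70.6 and 69.2 CPM against 33.9, 43.0 and 34.6 CPM in 3 libraries (1.08, SE 0.159). In neural retina spots, which lie next to the pigment layer, Cdh6 was not called (0.16, SE 0.0927). Pigment cell spots had 8 members higher and 1 lower of 29 tested, against 7.58% and 8.93% of all genes tested. The 8 higher members were Cdh3, Cdh6, Cdh11, Cdh18, Cdh20, Cdh23, Pcdh7 and Pcdh9, and for Cdh18 not every library was above the rest. Pcdh7 in these spots was at 147, 138, 135 and 135 CPM against 102, 96.6, 83.6 and 85.7 CPM (0.57, SE 0.0722), a small difference that every library showed.

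In neural retina spots Cdh20 was at 56.0, 35.0, 57.3 and 59.1 CPM against 6.91, 7.87, 4.54 and 5.18 CPM in the rest (log2 3.09, SE 0.269, adjusted p = 0.000913, edgeR). The retina held 5.73% of all UMIs and 31.9% of the Cdh20 UMIs. In lens spots of 3 libraries Cdh20 was at 24.4, 40.5 and 23.3 CPM against 9.17, 9.03 and 5.48 CPM (2.08, SE 0.247), and it was higher in pigment cell (1.27) and radial glia zone (0.87) spots too. With spots thinned to 5000 UMIs, Cdh20 was at -0.30 in radial glia zone spots (adjusted p = 0.819) and no longer called in pigment cell spots (0.90, adjusted p = 0.261, edgeR), where the call was also lost without the E14.5 replicates 2, 3 and 4 (0.98, adjusted p = 0.139, edgeR). The eye regions border each other, and the 5 neural retina markers summed to 471 to 1694 CPM in lens spots and 510 to 1033 CPM in pigment cell spots, against 120 to 302 CPM and 113 to 294 CPM in their rest. Their part in the Cdh20 values of the lens and the pigment cells was not tested. Besides Cdh20, the retina had higher Cdh22 (1.05), Pcdh15 (0.79), Cdh4 (0.73), Pcdh9 (0.53) and Pcdh19 (0.34), which made 6 higher and 7 lower of 29 members tested, against 14.0% and 13.9% of all genes. In lens spots 2 members were higher (Cdh20 and Cdh4) and 3 lower (Cdh13, Cdh26 and Pcdh18) of 31 tested, against 5.62% and 6.54%. Each of the 3 lower calls of the lens was lost when 1 library was left out, among them Cdh13 without the E15.5 replicate 1 (-0.55, adjusted p = 0.46, edgeR). The retina calls of Cdh22 and Pcdh9 were lost without the E15.5 replicate 1 as well (0.87, adjusted p = 0.143, and 0.47, adjusted p = 0.165, edgeR).

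**Figure D3:**
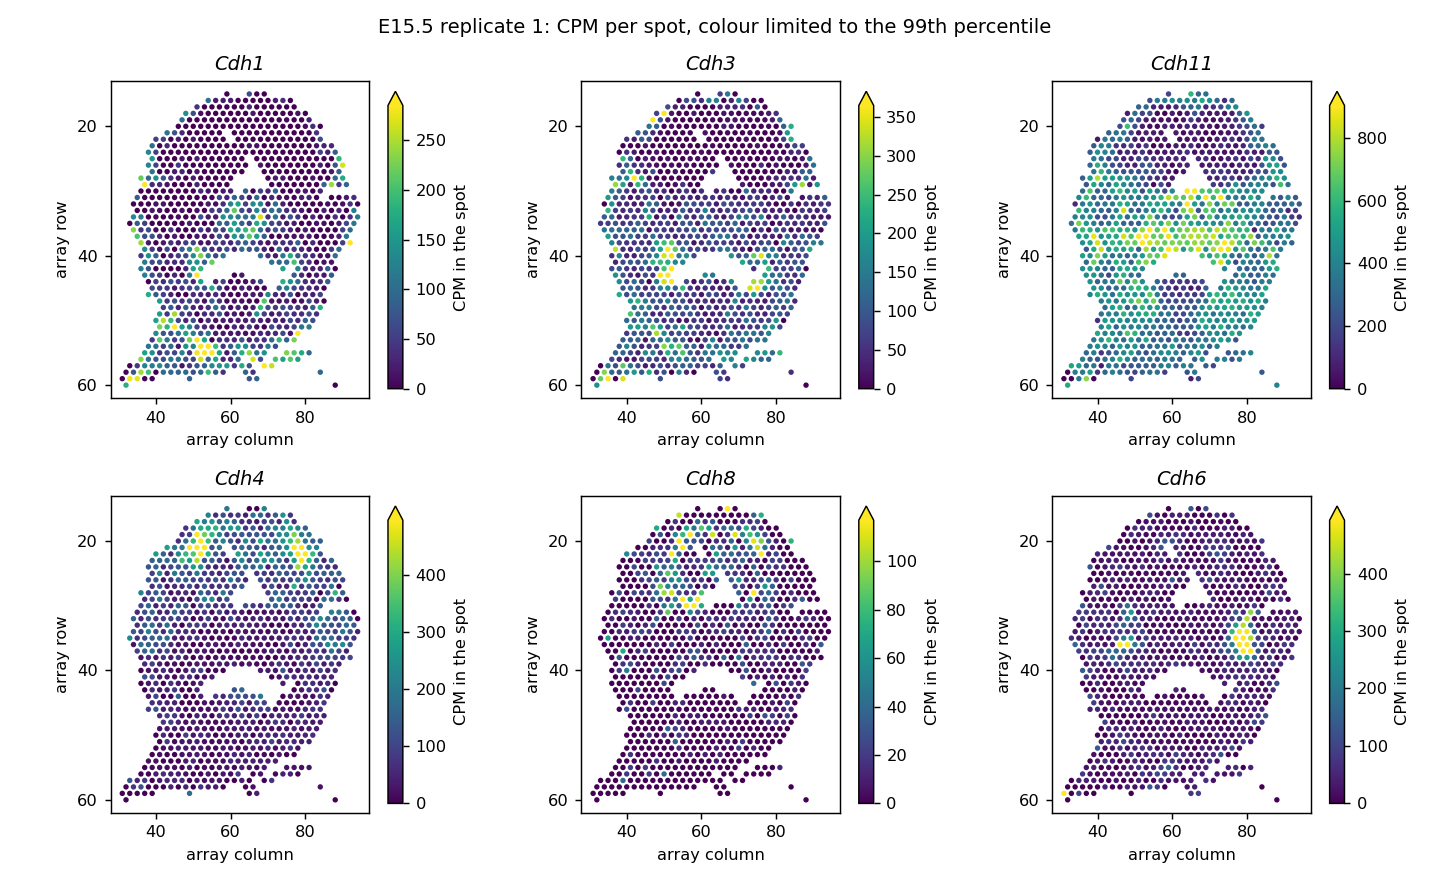
Maps of the E15.5 replicate 1 section with 1 point per tissue spot at its array row and column, coloured by the CPM of Cdh1, Cdh3, Cdh11, Cdh4, Cdh8 and Cdh6 in that spot. Cdh1 and Cdh3 are bright in parts of the outline of the head and beside the mouth, Cdh1 also in a central patch above it, Cdh11 fills the middle of the face and is low in the brain at the top, Cdh4 and Cdh8 are bright in different parts of the brain, and Cdh6 is bright in a patch on either side.

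The brain regions differed among themselves in which type II cadherins led. In cortical excitatory neuron spots the largest difference was that of Cdh12, at 27.1, 19.5, 30.6 and 54.7 CPM against 3.05, 3.57, 3.53 and 3.22 CPM (log2 3.27, SE 0.265, adjusted p = 0.000178, edgeR). The cortex was the only region in which Cdh12 was higher, and it held 35.7% of the Cdh12 UMIs. Cdh10 followed there, at 38.6, 34.9, 45.1 and 50.5 CPM against 11.6, 9.86, 10.7 and 6.38 CPM (2.22, SE 0.201). In ventral forebrain spots Cdh12 was not called (0.63, SE 0.391) and Cdh8 led, at 72.4, 74.2, 44.7 and 102 CPM against 26.1, 14.2, 11.2 and 9.11 CPM (2.49, SE 0.316, adjusted p = 0.000881, edgeR). Cdh8 was above the rest in each library there, and was also higher in cortical (1.47) and radial glia zone (1.10) spots. The ventral forebrain was followed by Cdh22, at 15.9, 20.6, 14.3 and 12.7 CPM against 3.97, 7.49, 4.74 and 3.2 CPM (1.84, SE 0.151). Cdh7 was higher by a similar amount in ventral forebrain (1.38), cortical (1.32) and radial glia zone (1.13) spots. Cdh24 in radial glia zone spots was at 176, 208, 207 and 155 CPM against 113, 122, 102 and 66.0 CPM (0.99, SE 0.121). The differences between 2 brain regions were not themselves tested.

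Of the 29 members tested in each, cortical spots had 13 higher and 10 lower, against 31.9% and 37.6% of all genes tested, and ventral forebrain spots 13 and 8, against 35.5% and 38.4%. In radial glia zone spots 8 were higher and 9 lower of 27, against 28.0% and 35.3%.

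In skeletal muscle and bone spots most of the brain members were lower. The rest of these spots holds the brain regions, and the part of the brain in the lower calls was not tested. Of 29 members tested, muscle spots had 2 higher (Pcdh18 and Cdh5) and 20 lower, against 21.3% and 25.9% of all genes, and bone spots had 5 higher and 20 lower, against 25.6% and 27.5%. The furthest in muscle was Pcdh8, at 3.8, 5.82, 5.4 and 6.31 CPM against 148, 63.7, 66.1 and 33.5 CPM (log2 -3.10, SE 0.25, adjusted p = 6.44e-05, edgeR). Pcdh8 also led the lower members of bone (-2.37, SE 0.241). Cdh8 in muscle was at 5.71, 3.0, 2.59 and 4.06 CPM against 32.5, 22.3, 14.1 and 13.8 CPM (-2.21, SE 0.208). Pcdh8 and Cdh8 were each lower in 8 of the 14 regions, so being lower was not particular to muscle and bone.

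Cdh26 had the largest difference of all called pairs. In olfactory epithelium spots it stood at 29.6, 19.2, 12.0 and 21.9 CPM against 0.815, 0.551, 0.565 and 0.551 CPM in the rest (log2 4.99, SE 0.209, adjusted p = 2.34e-05, edgeR). The olfactory spots held 4.94% of all UMIs and 62.9% of its UMIs. No library overlapped the rest, and Cdh26 was higher in no other region tested. In neural retina spots it had 1 UMI in all. Cdh18 was higher in olfactory epithelium spots too (1.40, SE 0.297), at 11.3, 1.94, 3.34 and 7.72 CPM against 2.31, 1.06, 1.88 and 2.16 CPM, though on 61 UMIs. Of 29 members tested, 11 were higher and 9 lower in these spots, against 18.4% and 16.1% of all genes.

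Cdh23 and Pcdh15, whose proteins form the tip link of the hair cells of the inner ear, were higher in different regions. Cdh23 was higher in bone spots, at 10.3, 16.0, 10.2 and 16.7 CPM against 4.38, 6.34, 4.36 and 6.34 CPM, and led the higher members there (log2 1.51, SE 0.132, adjusted p = 0.000163, edgeR). The bone spots held 9.87% of all UMIs and 22.7% of the Cdh23 UMIs, and no library overlapped the rest. Pcdh15 was lower in bone (-1.34) and higher in ventral forebrain spots, at 18.1, 22.9, 31.1 and 26.3 CPM against 9.47, 11.6, 9.48 and 10.8 CPM (1.36, SE 0.164), and in neural retina spots (0.79). In pigment cell spots Cdh23 was higher by 0.88, a call that was lost without the E14.5 replicates 2, 3 and 4 (0.98, adjusted p = 0.182), without the E15.5 replicate 1 (0.67, adjusted p = 0.131) and without the E15.5 replicates 2, 3 and 4 (0.93, adjusted p = 0.175, edgeR). When spots were thinned to 5000 UMIs, Pcdh15 in neural retina spots was at -0.011 (adjusted p = 0.994, edgeR).

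Among the protocadherins, Pcdh18 was higher in muscle, mesenchymal and epithelial spots. In skeletal muscle spots it was at 194, 182, 194 and 191 CPM against 101, 111, 134 and 150 CPM (log2 0.74, SE 0.104, adjusted p = 0.000891, edgeR). The 4 libraries lay close together and above the rest. It was higher as well in multiciliated airway (0.72), oral-palatal mesenchyme (0.69), stratified epithelium (0.56) and bone (0.32) spots, and lower in the 3 brain regions, furthest in ventral forebrain (-1.48). In bone spots the fourth library went the other way, at 147 against 158 CPM, and the call was lost without TMM scaling (0.15, adjusted p = 0.222, edgeR). Multiciliated airway spots had 4 members higher (Cdh1, Cdh11, Pcdh18 and Pcdh19) and 13 lower of 32 tested, against 15.0% and 17.7% of all genes.

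Pcdh8, a protocadherin of the developing forebrain, was higher in ventral forebrain (1.68, SE 0.329), radial glia zone (1.59, SE 0.286), cortical (1.59) and olfactory epithelium (1.08, SE 0.24) spots. In radial glia zone spots it was at 236, 101, 186 and 154 CPM against 127, 57.0, 51.7 and 27.2 CPM, higher in each library, although the ranges of both groups overlapped. Pcdh10 in ventral forebrain spots was at 149, 175, 216 and 145 CPM against 102, 78.4, 85.6 and 72.6 CPM (1.14, SE 0.144), and it was higher in cortical (0.93) and radial glia zone (0.50) spots. Pcdh9 led the protocadherins of the cortex, at 36.8, 50.4, 31.5 and 75.7 CPM against 15.8, 17.3, 12.1 and 16.9 CPM (1.67, SE 0.154). Pcdh1 and Pcdh17 were highest over the rest in ventral forebrain spots, by 0.98 (SE 0.0929) and 0.82 (SE 0.18). Pcdh17 was lower in cortical spots (-0.62), though not in every library. Pcdh20 was higher in stratified epithelium (0.68, SE 0.164), cortical (0.62) and oral-palatal mesenchyme (0.49) spots.

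Stratified epithelium spots had 4 members higher (Cdh1, Cdh3, Pcdh20 and Pcdh18) and 16 lower of 29 tested, against 23.1% and 21.9% of all genes. Oral-palatal mesenchyme spots had 7 higher (Cdh1, Cdh3, Cdh11, Pcdh7, Pcdh12, Pcdh18 and Pcdh20) and 10 lower of 29, against 14.2% and 17.4%. Schwann cell spots had 5 higher (Cdh5, Cdh6, Cdh10, Cdh11 and Pcdh7) and 5 lower of 31, against 5.42% and 8.93%. Without the E14.5 replicates 2, 3 and 4, the calls of Cdh10 (1.04, adjusted p = 0.104) and Pcdh7 (0.42, adjusted p = 0.114, edgeR) in Schwann cell spots were lost. Cdh19, which is known from Schwann cell precursors, was not called there. It had 1, 1 and 3 UMIs in the Schwann cell spots of 3 libraries, a difference of 2.16 with an SE of 1.08 (adjusted p = 0.223, edgeR). Cdh9, Cdh17 and Cdh19, with 108, 106 and 153 UMIs, were too low to be tested in most regions and were called in none.

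The genes that work with cadherins were counted by the same test. Of 15 catenins and adherens junction partners, 9 were higher and 4 lower in stratified epithelium spots, against 23.1% and 21.9% of all genes, and Jup, which encodes plakoglobin, and Ctnnd1, which encodes p120-catenin, were among the higher and the neural catenins Ctnna2 and Ctnnd2 among the lower. In ventral forebrain spots 5 were higher and 9 lower, against 35.5% and 38.4% of all genes, with Ctnna2 and Ctnnd2 now higher. Of 10 desmosomal genes tested, 9 were higher and 1 (Pkp2) lower in stratified epithelium spots, with a median of 2.88 on the log2 scale beside 0.03 over all genes tested. All 10 were lower in cortical, in ventral forebrain and in radial glia zone spots, where 37.6%, 38.4% and 35.3% of all genes were. In oral-palatal mesenchyme spots 7 of the 10 were higher, against 14.2% of all genes, and none was lower. Of 9 transcription factors that act on epithelial and mesenchymal state, 6 were higher in stratified epithelium spots (Ovol1, Ovol2, Grhl2, Grhl3, Twist1 and Snai2) and Zeb1 was lower. Of the other large cadherins tested, 4 of 14 were higher in stratified epithelium spots (Fat1, Fat2, Celsr1 and Dchs2) and 8 of 15 in cortical spots, against 31.9% of all genes there, Celsr2, Celsr3, Fat3 and the calsyntenins among them. Lower were 5 of 14 and 5 of 15.

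Across 58 sums of a library and a region, centred within each library, the genes with the levels most like those of a member were looked up. The closest to Cdh1 were Esrp2 (Pearson r = 0.95), Mpzl2 and Esrp1, and the closest to Cdh11 were Mmp2 (0.94), Cpxm1 and Col8a2. For Cdh5 they were Cd248 (0.97), Postn and Lamb1, and for Cdh20 Hes5 (0.88), Fgf15 and Pax6. For Cdh4 they were Vash1 (0.89), Ntng2 and Fezf2, for Cdh13 Thra (0.90), Celf2 and Cnih3, and for Cdh6 Nr2f1 (0.69), Dct and Apoe. Cdh23 had no close match, with Vav2 at 0.61. Between members the highest values were those of Cdh24 and Pcdh8 (0.88), Cdh5 and Cdh11 (0.88), the neighbours Cdh1 and Cdh3 (0.87), and Cdh5 and Pcdh12 (0.85). The points share libraries and their rest of the section, so these values describe likeness and carry no p-value. Hes5, Fezf2 and Dct were in the lists that defined the radial glia, cortical and pigment cell spots.

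E15.5 was compared with E14.5 over all tissue spots with 2 libraries per stage. No member of 32 was called and no gene of 15609 (0.0% of genes, edgeR), while 930 genes and 4 members had an unadjusted p under 0.05. With DESeq2, 0 members were called and 3 had an unadjusted p under 0.05. In simulated counts, the edgeR test of the stages called 7% of genes changed by 1 on the log2 scale. It called 85% of those changed by 2, so a missing call does not show an unchanged level. The member with the smallest p, Cdh8, was at 31.5 and 20.4 CPM at E14.5 and 12.6 and 12.3 CPM at E15.5, a log2 difference of -1.11 (SE 0.299, adjusted p = 0.769, edgeR). Both E15.5 libraries were below both E14.5 libraries. The stages did not overlap for 13 of the 32 members, or 40.6%, beside 40.1% of all genes tested, so a lack of overlap did not set these members apart. Cdh19 was at 0.194 and 0.22 CPM against 0.624 and 0.942 CPM (1.80, SE 0.54), on 153 UMIs in all. Pcdh8 was at 143 and 58.0 CPM against 58.1 and 29.4 CPM (-1.24, SE 0.456), Cdh5 at 56.4 and 60.2 CPM against 84.2 and 90.0 CPM (0.51, SE 0.219), and Cdh24 at 122 and 124 CPM against 107 and 67.5 CPM (-0.56, SE 0.27). Brain regions held 48.5% and 17.8% of the UMIs in the E14.5 libraries and 21.4% and 6.02% in the E15.5 libraries. Choroid plexus spots, which were not counted among these regions, held 9.93% in E14.5 replicates 2, 3 and 4 and 1.13% in E15.5 replicates 2, 3 and 4. Neither replicate 1 library had such spots. The part of the tissue shares in the stage values of the members was not tested.

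**Figure D4:**
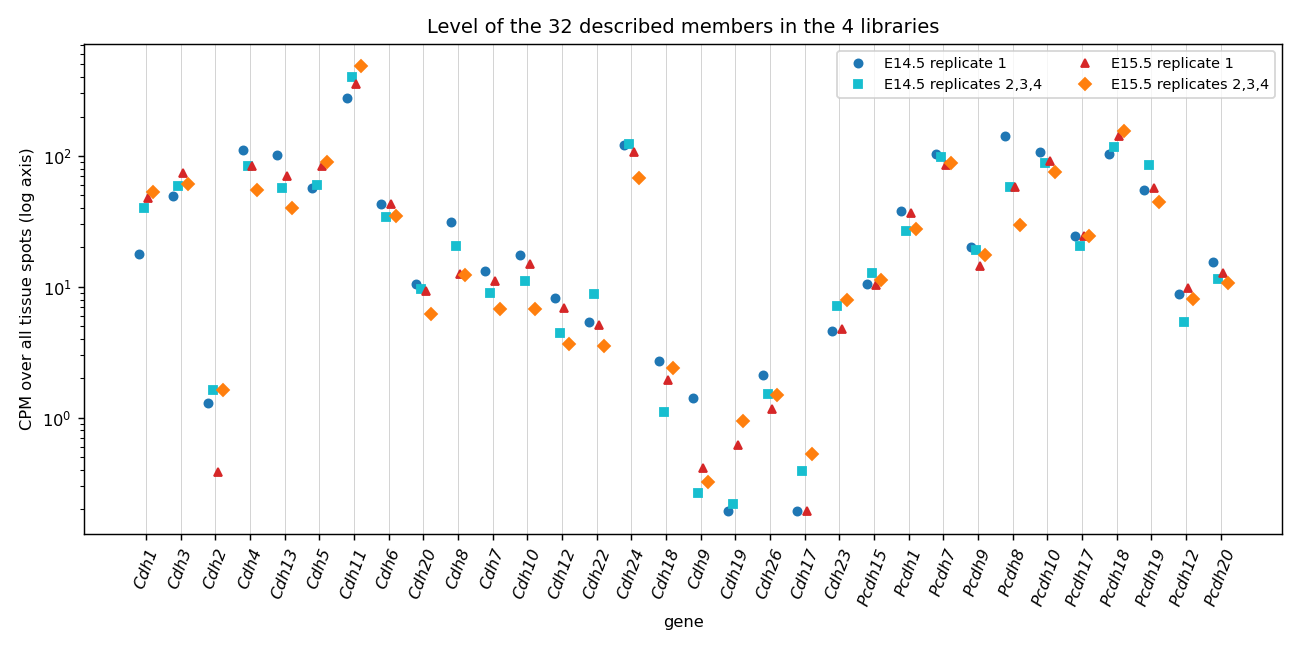
CPM over all tissue spots (vertical log axis) of each of the 32 described members (horizontal axis) in the 4 libraries, circles and squares for E14.5 and triangles and diamonds for E15.5. No member was called between the stages. For Cdh8 both E15.5 points lie below both E14.5 points, and for Cdh5 both lie above.

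Within 11 regions that all 4 libraries held, no member was called between the stages either, while all genes gave 4 higher calls (0.0313%) and 1 lower call (0.00782%) in stratified epithelium spots and 1 lower call (0.0083%) in oral-palatal mesenchyme spots, with 0.0% in each of the other 9 (edgeR). Of the pairs of a member and a region, 4 had an unadjusted p under 0.05, and 3 with DESeq2, which also called none. The smallest was that of Pcdh19 in stratified epithelium spots, at 46.5 and 52.5 CPM at E14.5 and 32.1 and 28.9 CPM at E15.5 (log2 -0.76, SE 0.285, adjusted p = 0.999, edgeR). Next came Cdh23 in ventral forebrain spots, at 1.65 and 5.76 CPM against 9.3 and 13.3 CPM (1.29, SE 0.513), and Cdh7 in cortical spots, at 17.2 and 13.6 CPM against 23.0 and 40.7 CPM (0.94, SE 0.402). The 1.65 CPM of Cdh23, in the shallow E14.5 replicate 1 library, rested on 3 UMIs. Pcdh17 was at 11.8 and 24.0 CPM against 41.0 and 36.6 CPM in pigment cell spots (0.87, SE 0.38) and at 23.7 and 15.4 CPM against 38.3 and 28.2 CPM in oral-palatal mesenchyme spots (0.80, SE 0.393). In these 5 pairs the libraries of both stages did not overlap, and none passed the adjusted threshold. Over all regions, 74 of 284 pairs of a member and a region did not overlap (26.1%), beside 26.3% of the pairs of all genes. Cdh1, Cdh3 and Cdh11 in oral-palatal mesenchyme spots were not called between the stages. In simulated counts for these spots, 18.4% of genes changed by 1 on the log2 scale were called, and 81% of those changed by 2.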

How the data were processed

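For each of the 4 libraries the authors deposited a matrix of UMI counts (genes by spots, not normalized) and the spots' array positions. The counts were made with Space Ranger 1.3.1 for both replicate 1 libraries and 2.0.0 for the others, per the file headers, and the submitters' notes name mm10. The probe set and the annotation are not given in the sources used here. Probe counts are not per gene length, so levels were compared within a gene only.

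Spots over tissue with counts were used (6357), and 19 barcodes off tissue and 12 tissue spots without counts were left out. Sections were separated as connected groups of at least 100 spots, and 88 spots fell in no section. The E15.5 replicates 2, 3 and 4 library had only 2 such groups for its 3 sections. Its spots were therefore cut into 3 sections by array position (k-means clustering), and these may not match the real sections. Libraries shared 541 to 1397 barcodes, which name array positions and not cells. Doublets were not called, because spots hold several cells anyway.

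A spot went to the region whose markers had the largest share of its UMIs relative to the mean share, if at least 3 times the mean, with at least 5 marker UMIs and 2 markers. Sums were tested with edgeR 4.0.16 (quasi-likelihood, TMM, filterByExpr, R 4.3.3), adjusted over all genes tested, and an SE is the size of the log2 difference divided by the square root of its F statistic. DESeq2 1.42.0, other scalings, filters, region thresholds, thinned spots, a replicate block and leaving out each library were alternatives. The scripts were tested on simulated counts. Likeness used log2 of CPM with 0.5 added, for members with at least 1000 UMIs. At least 100 UMIs were needed for a member to be described.

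The text names every described member, for each region at most the 5 highest and 3 lowest called members with their values where they carry a result, the 5 smallest p-values where no stage call was made, and the 3 most alike genes. The members, the marker lists and the gene lists were chosen with earlier results of these data known, so no pattern here is independent support of another.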

Additional observations from a re-analysis of the deposited data

Results flagged for a closer look

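In each stage, the level of every described member was compared over its 4 sections, and a section was marked where its distance to the nearest other section took up an unusually large part of the range of all 4 (Dixon's criterion). Of 64 groups of 4 sections, 3 were marked, where chance marks about 1 in 20. At E14.5, Pcdh18 stood at 185 CPM in section A of the replicates 2, 3 and 4 library, and the next section was at 117 CPM. That section was shallow (median 10037.5 UMIs in its spots). At E15.5, Cdh18 stood at 3.63 CPM in section C of the replicates 2, 3 and 4 library, against 2.01 CPM in the next. The sections of that library were cut by array position, since it had only 2 connected groups of spots. At E14.5, Cdh9 stood at 1.43 CPM in the replicate 1 section, against 0.320 CPM in the next, on few UMIs.

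The difference between a region and the rest was compared between the stages for 317 pairs of a member and a region. An unadjusted p under 0.05 was found for 50 of them. The same share of all genes was not computed and the pairs share libraries, so this count cannot tell whether the members differ from other genes. After adjustment 1 pair was called, Cdh4 in bone spots. There the log2 difference of bone over the rest was higher by 0.72 at E15.5 than at E14.5 (SE 0.174, adjusted p = 0.0782, edgeR), while 2.17% of all genes tested were called in that comparison. Bone stood at 0.329 and 0.258 of the rest at E14.5 and at 0.421 and 0.443 of it at E15.5, so Cdh4 was lower in bone in each library. In bone spots it was at 37.6, 23.1, 36.8 and 26.6 CPM, and in the rest at 115, 89.5, 87.6 and 60.1 CPM, with 22 UMIs in the bone spots of the E14.5 replicate 1. The rest holds the brain regions, where Cdh4 was higher and which took 48.5%, 17.8%, 21.4% and 6.02% of the UMIs of the 4 libraries, and the part of that share in the difference was not tested. The Cdh4 level in bone spots itself did not pass the test between the stages (0.13, SE 0.331, adjusted p = 0.9995, edgeR), and over all tissue spots Cdh4 was at 112 and 84.1 CPM at E14.5 and at 84.3 and 54.9 CPM at E15.5.

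The 19 barcodes off tissue, which no comparison used, held 861 UMIs of the members. That was 1531 CPM, beside 1466 CPM over tissue.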

How the results depend on the processing

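The count of 225 called pairs of a member and a region moved to 142 when every sum had to hold at least 10 counts, a filter under which 83 of the called pairs were no longer tested and 53.5% of the calls were higher, beside 39.6% in the count as reported. It moved to 137 when spots were thinned to 5000 UMIs, which left 11 of the 14 regions; over the same regions 178 pairs had been called, and 124 were shared. Under the other alternatives it ranged from 157 without the library as a block to 247 with a looser region threshold, and DESeq2 gave 219. Leaving out 1 library gave 190 to 232. Without TMM scaling, 233 pairs were called and none of the 225 changed sign, while the median of all genes moved by more than 0.1, to -0.20 in cortical, -0.15 in ventral forebrain, -0.19 in bone, -0.14 in muscle and -0.26 in lens spots. With thinned spots, 3 named results changed sign, namely Pcdh15 in neural retina (-0.011), Cdh20 in radial glia zone (-0.30) and Cdh13 in lens spots (0.031), and the cause was not tested. Over all alternatives, 1218 of the recomputed values for 108 named results kept their direction and their side of the threshold, 79 lost the call and 3 changed sign.

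No member was called between the stages over all tissue under any alternative run, nor within regions, except that 1 call appeared without the E14.5 replicate 1 library, so leaving out a library gave 0 to 1. That was Pcdh19 in olfactory epithelium spots (log2 -0.98, adjusted p = 0.0378, edgeR; -0.58 and 0.9999 with all libraries), a pair found after the values were seen. With a library left out, the lone library of its stage was assumed to vary like the other stage. The labels give both stages a library numbered 1 and another numbered 2, 3 and 4, and nothing says that equal numbers share an embryo or a day. Libraries of equal number did share a Space Ranger version (1.3.1 for replicate 1, 2.0.0 for the others) and a number of sections. The part of this in the correlation that follows was not tested. The deviations of the samples numbered 1 correlated across genes at r = 0.25 over 15609 genes, and with only 2 pairs the numbers were not taken as a pairing. With the replicate block, 0 members were called over all tissue and 0 within regions. With 2 libraries per stage and 1 shallow library, depth limits the precision of genes with few UMIs, such as Cdh2, Cdh9, Cdh17 and Cdh19.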

Other observations

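Regions with too few libraries for a test gave values only. In the 1 library with at least 10 spots high in endothelial markers, E14.5 replicate 1, Cdh5 was at 200 CPM against 55.1 CPM in the rest, on 29 UMIs, and Pcdh12 was at 55.1 against 8.30 CPM, on 8 UMIs. In sensory ganglion spots of 2 libraries, Cdh6 was at 74.9 and 47.7 CPM against 33.8 and 34.7 CPM, and Cdh11 at 613 and 597 CPM against 402 and 483 CPM. In the same spots Pcdh8 was at 28.3 and 8.84 CPM against 58.4 and 29.7 CPM. In choroid plexus spots of 2 libraries, Cdh7 was at 17.9 and 7.96 CPM against 7.92 and 6.72 CPM, and Cdh6 at 15.5 and 29.8 CPM against 36.4 and 34.9 CPM. Cdh1 and Cdh5 changed direction between these 2 libraries. Cdh1 was at 4.24 and 70.6 CPM against 44.1 and 53.0 CPM, and Cdh5 at 23.8 and 107 CPM against 64.2 and 89.8 CPM. Whether the markers picked the same tissue in both libraries was not tested.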
